A study of Mus musculus with 15 samples.

Results

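Open chromatin of bulk islet libraries was followed at 10 marker genes of endothelial cells. They are Cdh5, which encodes the junction protein VE-cadherin, and Pecam1, Kdr, Flt1, Tek, Tie1, Plvap, Esam, Eng and Emcn. Every peak that the authors' deposited tables assign to one of these symbols was taken, after removal of repeated rows. A peak was found for 5 of the 10 genes, Cdh5, Esam, Flt1, Tek and Plvap, at 8 places of 13858 listed over the 4 tables. The tables hold 3 such peaks of 7826 for KO-labelled against control islets before partial pancreatectomy (PPx), 8 of 13111 for the same comparison after PPx, 5 of 8070 for controls after against before PPx, and 5 of 12767 for KO-labelled islets after against before PPx. The peaks were thus selected on the peak calls themselves: in every table the least-called peak had been called in 2 libraries of its comparison, and 8 of the 21 rows of these peaks stood exactly there, 4 more at 3 libraries. Places called in fewer libraries are not among the rows. A gene without a listed peak is therefore not shown to be closed.

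ATAC-seq, in which Tn5 transposase inserts sequencing adapters into accessible DNA, was done on 15 libraries of islet cells from male mice of 3 months. The groups at 6 days after PPx were 4 libraries from mice carrying TRE-Cre (Arid1a βKO, here KO-labelled) and 4 from control mice without it. Before PPx there were 3 KO-labelled and 4 control libraries. Every group, controls included, was Arid1aFl/Fl with MIP-rtTA, an rtTA activator driven by the mouse insulin promoter. Per the labels, drinking water held doxycycline (1 g/L) over 2 weeks, and surgery came 1 week after its withdrawal. All libraries before PPx carry lower numbers in their titles than those after PPx, and no group is labelled as sham-operated. In folds of after against before PPx, loss of pancreas, surgery as such and library order therefore cannot be told apart. Arid1a encodes a DNA-binding part of SWI/SNF remodellers, and Cre was directed to beta cells, so endothelial cells lie outside the population that the transgenes target. The 1 listed Arid1a peak, in exon 9, was higher under the KO label, with a log2 fold of 4.28 before PPx and 3.64 after PPx in the authors' deposited tables. Which exon is floxed is not stated in the labels, so the peak gives no check of the genotype and the group is called by its label.

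Pancreatic islets hold a dense net of fenestrated capillaries. Beta cells secrete VEGF-A, which acts on the endothelial receptors KDR and FLT1, while angiopoietins act on TEK, whose relative TIE1 forms complexes with it. VE-cadherin, ESAM and PECAM1 hold neighbouring endothelial cells together, PLVAP forms the diaphragms of fenestrae, endoglin (Eng) is a co-receptor for BMP ligands, and endomucin (Emcn) coats the luminal face. In a bulk library of whole islets, fewer endothelial cells and less open chromatin per endothelial cell cannot be told apart. Whether reads at the peaks of these genes come from endothelial or other islet cells was not tested.

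Of the 5 genes with a listed peak, only Esam had one annotated as a promoter. Start-site windows of 300 bp (250 bp before to 50 bp after the start, RefSeq, build GRCm38.p6, the same assembly as mm10) were given for 6 of the 10 genes: Kdr, Flt1, Tek, Tie1, Eng and Emcn. None of these 6 windows, which do not include that of Esam, overlapped a listed peak in any table. Over all 32851 windows the share that did so in at least 1 table was 24.1%, and 6 windows are too few to set these genes apart from it. The windows of the receptor genes are shown because they are the places where no peak was listed: Flt1 at chr5:147725962-147726261 and Kdr at chr5:75978406-75978705 on the minus strand of chromosome 5, Tek at chr4:94739039-94739338 on the plus strand and Tie1 at chr4:118489800-118490099 on the minus strand of chromosome 4. Capitals mark GGAAG, a string that extends the GGAA core bound by ETS factors, or its reverse complement CTTCC. Places with only GGAA or TTCC are left unmarked.
Flt1: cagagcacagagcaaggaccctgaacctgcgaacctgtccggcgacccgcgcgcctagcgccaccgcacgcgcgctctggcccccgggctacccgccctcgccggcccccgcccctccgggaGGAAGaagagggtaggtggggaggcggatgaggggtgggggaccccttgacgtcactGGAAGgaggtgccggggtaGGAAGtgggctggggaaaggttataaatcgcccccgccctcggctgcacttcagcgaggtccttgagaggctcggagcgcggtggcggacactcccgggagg
Kdr: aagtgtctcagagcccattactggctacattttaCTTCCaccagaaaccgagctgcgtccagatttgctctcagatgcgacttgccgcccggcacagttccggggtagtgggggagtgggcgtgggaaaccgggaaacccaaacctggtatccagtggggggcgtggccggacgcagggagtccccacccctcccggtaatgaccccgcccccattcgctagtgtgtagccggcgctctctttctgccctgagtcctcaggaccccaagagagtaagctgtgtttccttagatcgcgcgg
Tek: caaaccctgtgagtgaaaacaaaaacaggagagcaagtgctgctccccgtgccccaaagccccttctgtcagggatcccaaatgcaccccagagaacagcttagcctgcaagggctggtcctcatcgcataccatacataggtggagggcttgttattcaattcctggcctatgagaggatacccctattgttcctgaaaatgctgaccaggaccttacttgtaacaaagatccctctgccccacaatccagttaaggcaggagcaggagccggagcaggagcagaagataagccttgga
Tie1: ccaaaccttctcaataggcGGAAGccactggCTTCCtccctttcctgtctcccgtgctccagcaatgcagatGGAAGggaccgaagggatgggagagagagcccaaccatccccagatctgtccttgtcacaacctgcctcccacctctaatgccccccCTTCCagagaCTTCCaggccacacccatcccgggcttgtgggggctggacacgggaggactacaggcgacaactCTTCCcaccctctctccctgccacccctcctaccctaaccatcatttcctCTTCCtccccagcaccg
GGAAG occurred 3 times in the window of Flt1, 1 time in that of Kdr, 0 times in that of Tek and 7 times in that of Tie1, on either strand. It shared no base with the other motifs searched. The shorter GGAA or TTCC was not counted, and TTCC does occur in the window of Tek. GGAAG is common: 71.4% of all promoter windows hold it on either strand. Of the other motifs searched on both strands, the SOX core ACAAT (in 31.0% of all windows) occurred 2 times in the window of Tek, the GATA core AGATA (29.6%) 1 time in that of Tek, the GC box GGGCGG (35.7%) 3 times in that of Flt1 and 2 times in that of Kdr, and the AP-1 motif TGACTCA (5.20%) in none of the 4.

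The listed peaks had the following places in mm10. Only the Esam peak was annotated as a promoter (within 1 kb of a start site), and it lies inside the RefSeq gene, 2633 bp from its nearer end (chromosome 9, 37530727 to 37531327 in the table of genotype after PPx). The Flt1 peak is in intron 15 of 29 (chromosome 5, 147611266 to 147611866), 114 kb downstream of the start site. The Tek peak is in intron 1 of 21 (chromosome 4, 94752463 to 94753063), 13.4 to 13.5 kb downstream of the start. The Plvap peak was annotated as distal intergenic (chromosome 8, 71521520 to 71522120), 9714 bp from Plvap and within the RefSeq gene Ccdc194. Of the 10 genes, 5 (Pecam1, Kdr, Tie1, Eng and Emcn) had 0 listed peaks within 10 kb of the gene, whatever symbol the tables gave.

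The peaks assigned to Cdh5 lay outside the gene. All of them are distal intergenic peaks on the low-coordinate side of Cdh5 (chromosome 8, 104101613 to 104144504), and 0 lie in its body or at its start. The near peak (104091378 to 104091978) is 9635 bp from the gene and within the RNA gene Gm29682. The middle peak (104050834 to 104051434) is 50.2 kb away. The far peaks (far 2 at 103536019 to 103536619 and far 1 at 103520289 to 103520889 in the table of genotype after PPx) are 565 and 581 kb away, with 11 RNA genes or pseudogenes nearer to them than Cdh5. Cdh5 is the nearest protein-coding gene to each of the 4, followed by Bean1 at 78.4 to 649 kb. The symbol Cdh5 marks a nearest gene here, and that these peaks belong to endothelial cells rests on the assignment alone.

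**Figure D1:**
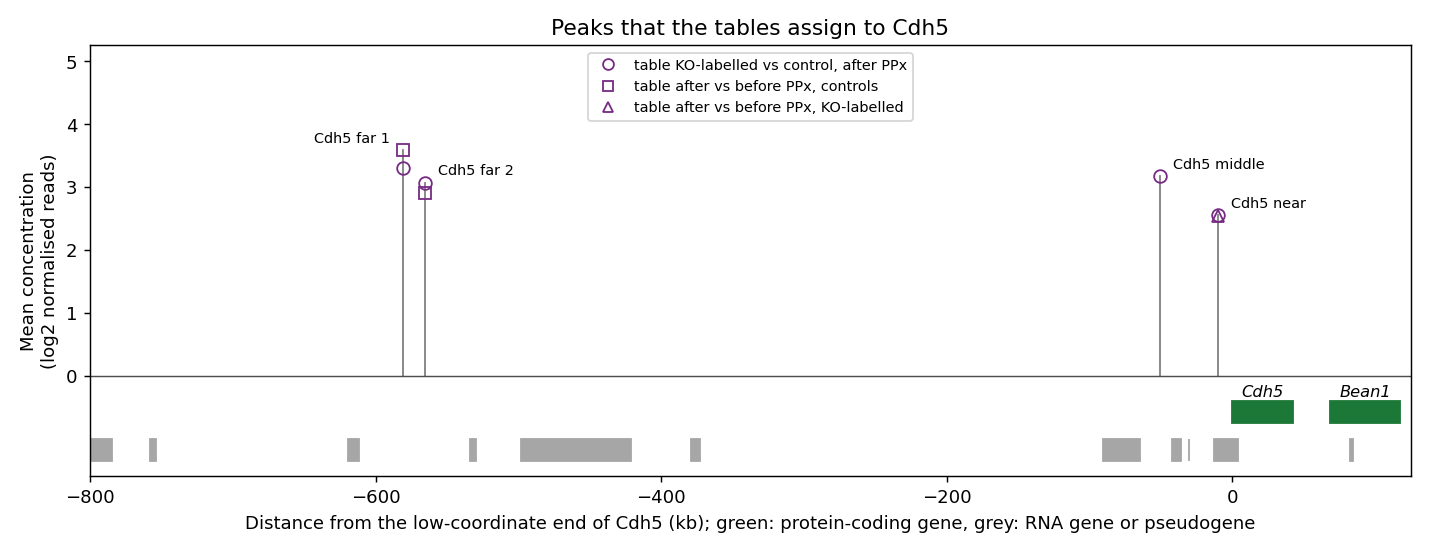
Map of the 4 peaks assigned to Cdh5, with distance from the low-coordinate end of the gene in kb on the horizontal axis and mean log2 concentration on the vertical axis, 1 symbol per table that lists the peak. Bars below the axis are RefSeq genes. The near peak is the lowest at 2.54 to 2.56, and the far peaks lie 565 and 581 kb from the gene at 2.91 to 3.58.

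Esam encodes a cell adhesion protein of endothelial tight junctions, and its peak was the strongest of the set. It was called in all 15 libraries. In the authors' deposited table before PPx its log2 concentration (log2 of the mean normalised reads per peak over a group) was 4.27 in KO-labelled islets and 4.74 in controls, and after PPx the authors' deposited table gave 5.09 in KO-labelled islets and 4.83 in controls. The fold of KO-labelled over control islets was -0.47 before PPx (95% interval -1.21 to 0.27) and 0.26 after PPx (-0.41 to 0.93), from the authors' deposited tables. Neither interval excludes 0. Intervals here come from a standard error implied by the deposited fold and p, so they hold only if that p measures spread between mice. For a fold below 0.15 or a p of at least 0.95, the median of the peak's concentration bin stands in for its own standard error. Against 1077 promoter peaks of like concentration (within 0.25 log2 units), whose median fold after PPx was 0.76, the fold of Esam was higher than that of 2.04%.

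Over PPx, the Esam peak had 5.09 after and 4.06 before PPx in KO-labelled islets in the authors' deposited table, and 4.88 after and 4.56 before PPx in controls in theirs. The log2 fold was 1.03 in KO-labelled islets (95% interval 0.24 to 1.82, FDR 0.0619 in the authors' deposited table) and 0.32 in controls (-0.33 to 0.97, FDR 0.999 in the authors' deposited table). The first missed the threshold of 0.05 that stands for a call here, and the difference between the 2 folds was not tested. Its size lies near the shift of its whole table, where the median fold over all listed peaks was 0.83 and 1201 like promoter peaks had a median of 0.88.

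Flt1 encodes VEGF receptor 1, which binds VEGF-A tightly and can act as a decoy for it. Its intron 15 peak was called in 4 of 4 KO-labelled libraries after PPx, 2 of 3 KO-labelled before PPx, 3 of 4 control after PPx and 4 of 4 control before PPx. Its log2 concentration was 4.10 in KO-labelled islets and 4.22 in controls after PPx, and 4.43 in KO-labelled islets and 4.39 in controls before PPx, in the authors' deposited tables. All of the groups lay close together. The fold of KO-labelled over control islets was -0.11 after PPx (95% interval -0.84 to 0.62) and 0.05 before PPx (-0.73 to 0.83). After against before PPx it was -0.10 in KO-labelled islets (-0.97 to 0.77) and 0.06 in controls (-0.63 to 0.75). Each of these folds is below 0.15, so the Flt1 intervals rest on the median of a concentration bin and not on the deposited p of the peak. The table of KO-labelled islets after against before PPx is the one with the widest shift, and the Flt1 fold there was higher than that of only 2.03% of 590 like peaks outside promoters, whose median was 0.82. Centred on the table median, the Flt1 fold of -0.93 in that table did not pass the threshold either after Benjamini-Hochberg adjustment over all listed peaks.

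Tek encodes the angiopoietin receptor TIE2, and its intron 1 peak was weaker. It was called in 1 of 4 KO-labelled libraries after PPx, 1 of 3 KO-labelled before PPx, 2 of 4 control after PPx and 2 of 4 control before PPx. In the authors' deposited tables its log2 concentration was 3.53 in KO-labelled islets and 3.69 in controls after PPx, and 3.69 in KO-labelled islets and 3.73 in controls before PPx. Over PPx the authors' deposited tables gave 3.63 after and 3.46 before in KO-labelled islets, and 3.74 after and 3.53 before in controls. The folds of KO-labelled over control islets were -0.16 after PPx (95% interval -0.88 to 0.56) and -0.04 before PPx (-0.98 to 0.90), and those of PPx were 0.17 in KO-labelled islets (-0.78 to 1.12) and 0.22 in controls (-0.65 to 1.09). In the table of KO-labelled islets after against before PPx the Tek fold exceeded that of 8.43% of 1412 like peaks, whose median was 0.77.

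**Figure D2:**
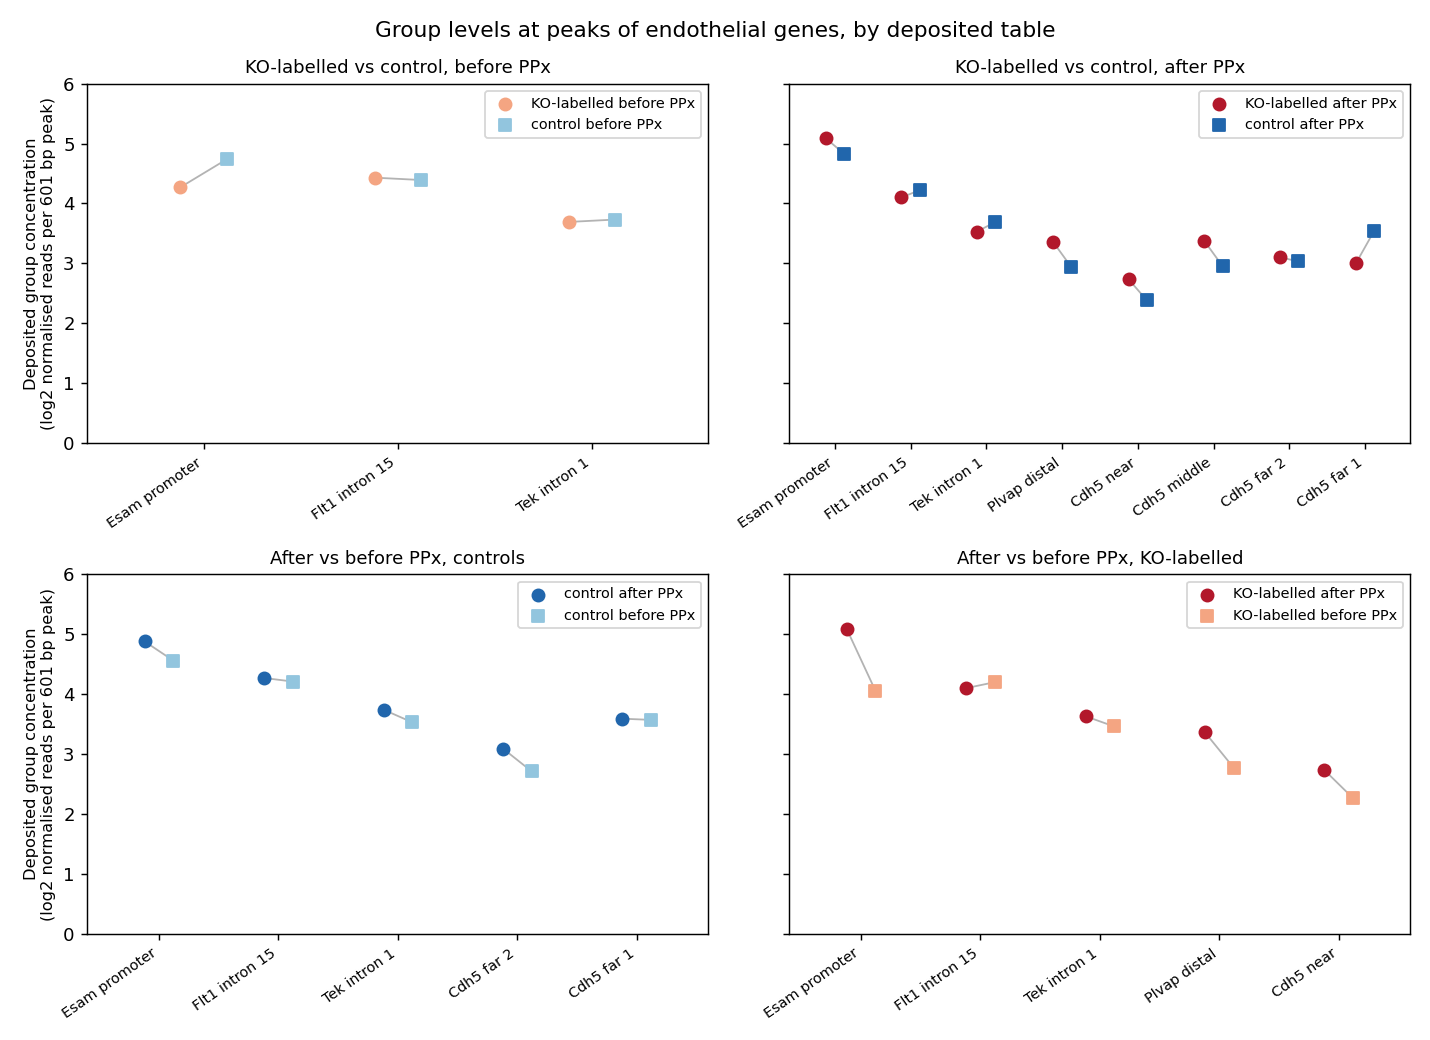
Deposited group concentrations (log2 normalised reads per peak, vertical axis) at each listed peak, with 1 panel per table; circles are the group named first in the panel title and squares the group it was set against, each a mean of 3 or 4 libraries with no spread deposited. Esam lies highest in each group except KO-labelled islets before PPx, where Flt1 (4.43 and 4.20 in the 2 tables) is above it (4.27 and 4.06), and Plvap and the Cdh5 peaks lie below 3.6.

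The Esam, Flt1 and Tek peaks were listed in all 4 tables and could be followed over all groups at once. Group values of identical intervals differed between tables by a constant: 0.18 for controls before PPx (263 intervals), 0.23 for KO-labelled islets before PPx (157), -0.05 for controls after PPx (173) and 0.00 for KO-labelled islets after PPx (2762), within 0.01 at 100% of these intervals and summing to 0 round the tables. Each table was therefore moved by its constant to the scale of the table of genotype after PPx, for description only, since no source used here gives how libraries were scaled. Where 2 tables give a group, the level is their mean, and the tables differ by at most 0.10 (Tek in KO-labelled islets after PPx, through shifted peak borders). On that scale Flt1 stood at 4.10 in KO-labelled islets after PPx, 4.20 in KO-labelled islets before PPx, 4.22 in controls after PPx and 4.16 in controls before PPx. Tek stood at 3.58, 3.46, 3.69 and 3.49 in the same groups, and Esam at 5.09, 4.05, 4.83 and 4.51. The order of Esam was KO-labelled after, control after, control before and KO-labelled before PPx from high to low; no neighbours in this order differed beyond their intervals, and the highest and lowest groups are those of the fold of 1.03 above. For Flt1 and Tek no pair of groups compared in a table differed beyond its interval, and the pairs that no table compares were not tested.

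Flt1 and Tek moved little while most peaks of their kind moved more. Among the 6754 peaks listed in all 4 tables, 600 were annotated as intron peaks, and their median levels were 4.27 in KO-labelled islets after PPx, 3.41 in KO-labelled islets before PPx, 3.89 in controls after PPx and 3.70 in controls before PPx. The gap between the highest and the lowest group, from 1 table per group, was 0.12 for Flt1 and 0.23 for Tek, against a median of 0.95 over the intron peaks. Of the 600 intron peaks, 0 had a smaller gap than Flt1 and 8 a smaller gap than Tek. For Esam the gap was 1.03, against a median of 1.01 over 4858 promoter peaks, of which 52.8% had a smaller gap. These ranks were looked at after the values had been seen and describe group means without library spread. They carry no test.

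**Figure D3:**
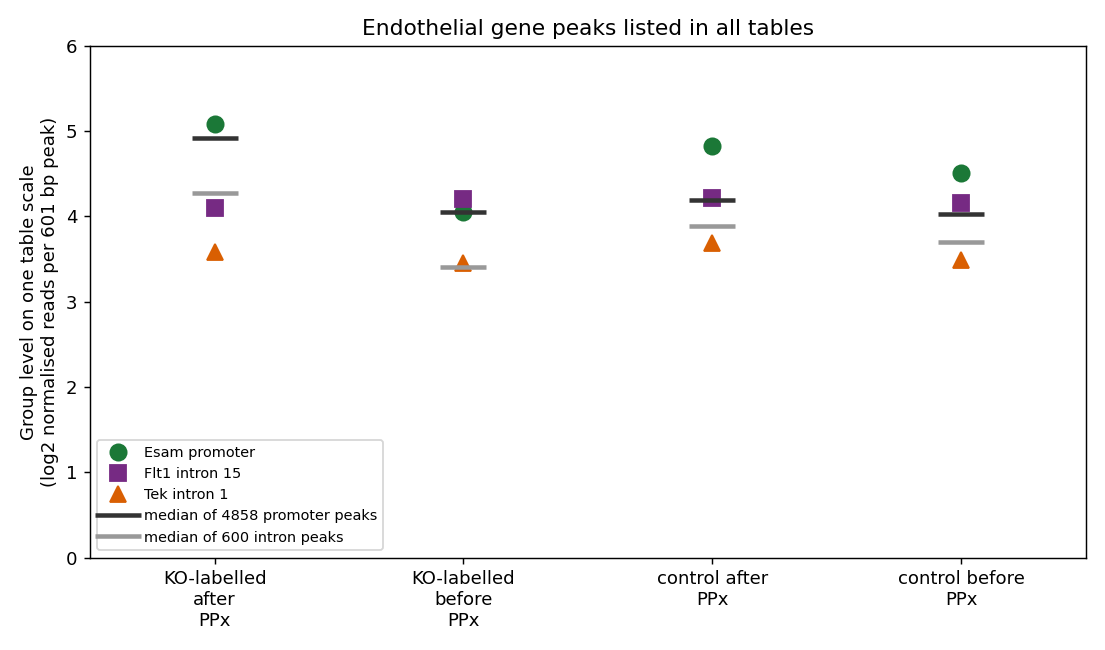
Levels of the Esam, Flt1 and Tek peaks in the 4 groups (horizontal axis), in log2 normalised reads per peak after each table was moved by its constant (vertical axis); dashes are medians of the promoter and intron peaks listed in all tables. Flt1 stays between 4.10 and 4.22 and Tek between 3.46 and 3.69, while the intron median spans 3.41 to 4.27.

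Plvap and the near Cdh5 peak were listed only in tables that hold the KO-labelled libraries taken after PPx. Both were called in 2 of 4 of these libraries, in 0 of 3 KO-labelled libraries before PPx and in 0 of 4 control libraries after PPx. The log2 concentration of the Plvap peak was 3.36 in KO-labelled islets and 2.94 in controls after PPx, and 2.77 in KO-labelled islets before PPx, in the authors' deposited tables. For the near Cdh5 peak the authors' deposited tables gave 2.73 in KO-labelled islets and 2.38 in controls after PPx, and 2.26 in KO-labelled islets before PPx. These are means of about 5 to 10 normalised reads: 10.3 and 6.63 in KO-labelled islets after PPx, 7.67 and 5.21 in controls after PPx, and 6.82 and 4.79 in KO-labelled islets before PPx, for Plvap and the near Cdh5 peak in that order. The folds were 0.42 (95% interval -0.47 to 1.31) and 0.34 (-0.70 to 1.38) for genotype after PPx and 0.59 (-0.56 to 1.74) and 0.47 (-0.79 to 1.73) for PPx in KO-labelled islets, and none of these intervals excludes 0. Calls in these libraries were more frequent throughout. Over all peaks of the genotype table after PPx, 71.4% of possible calls were made in KO-labelled libraries and 40.7% in controls, and in the table of KO-labelled islets 72.8% after and 46.7% before PPx. The part of this difference in the Plvap and Cdh5 calls was not tested.

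The other Cdh5 peaks were weak and went different ways. The middle peak had a log2 concentration of 3.37 in KO-labelled islets and 2.95 in controls after PPx (fold 0.41, 95% interval -0.65 to 1.47) in the authors' deposited table, with a call in 1 of 4 libraries of each group, and no other table lists it. The far peak at 565 kb had 3.10 in KO-labelled islets and 3.03 in controls after PPx in the authors' deposited table (fold 0.08, -0.89 to 1.05), and 3.09 after and 2.71 before PPx in controls (fold 0.39, -0.90 to 1.68). The far peak at 581 kb had 3.00 in KO-labelled islets and 3.54 in controls after PPx in the authors' deposited table (fold -0.54, -1.44 to 0.36), and 3.59 after and 3.57 before PPx in controls (fold 0.02, -0.80 to 0.84). It was the lowest fold of the set in any table, above that of 3.94% of 1750 like peaks, yet its interval includes 0. Calls at the far peaks were made in 1 of 4 KO-labelled libraries after PPx at each, in 1 and 2 of 4 control libraries after PPx, and in 1 of 4 control libraries before PPx at each, in the order 565 and 581 kb. The Cdh5 peaks thus give folds of both signs in the same table and no common direction.

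By the test behind the deposited FDR, none of the endothelial gene peaks was called at an FDR of 0.05. The count was 0 of 3 for genotype before PPx, where 0.0128% of all listed peaks were called, and 0 of 8 for genotype after PPx, where 9.98% were called. It was 0 of 5 for PPx in controls, where 0% of listed peaks were called, and 0 of 5 for PPx in KO-labelled islets, where 7.45% were called. At an unadjusted p under 0.05 the counts were 0, 0, 0 and 1 in that order, the 1 being Esam (p = 0.0108 in the authors' deposited table), beside 3.14%, 33.6%, 2.53% and 39.4% of all listed peaks. For genotype after PPx the Plvap and all 4 Cdh5 peaks carry an FDR of exactly 1 in the authors' deposited table, as do Plvap and the near Cdh5 peak for PPx in KO-labelled islets. Among peaks with a mean log2 concentration under 3.2 an FDR of 1 stands at 2441 of 2442 and 2668 of 2710 in these tables, with 1 peak called in each. The Cdh5 peak at 581 kb, at 3.30, lies above that level. At an FDR of 0.1 the counts were 0, 0, 0 and 1 (Esam), beside 0.0128%, 25.9%, 0% and 31.1% of all listed peaks. By direction, 9.89% of peaks were called higher and 0.0839% lower for genotype after PPx. With 3 to 8 peaks a table, these counts are given as a description, and no test sets the endothelial peaks apart from the rest.

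The median log2 fold of the endothelial gene peaks was -0.04 for genotype before PPx, 0.17 for genotype after PPx, 0.22 for surgery in controls and 0.47 for surgery in KO-labelled islets. Over all listed peaks the medians were 0.00, 0.61, 0.16 and 0.83. Most of the endothelial gene peaks are outside promoters, and over all such peaks the medians were -0.12, 0.38, 0.20 and 0.77. In the table of genotype after PPx 8 of 8 endothelial gene peaks lay below the table median, to which promoters contribute most, and 6 of 8 lay below the median of peaks of like class and concentration, with Plvap and the middle Cdh5 peak above it. In the table of PPx in KO-labelled islets 4 of 5 lay below either median. Both tables contain the KO-labelled libraries taken after PPx, so they are not separate evidence. For genotype before PPx 2 of 3 peaks lay below the table median and 1 of 3 below that of like peaks, and for PPx in controls 2 of 5 lay below either. The median of 0.17 for genotype after PPx turned to -0.11 with 1 peak per gene, where the 581 kb peak (fold -0.54) stood for Cdh5. Cdh5 holds 4 of the 8 peaks, and the others had folds of 0.34, 0.41 and 0.08. The sign of this median therefore depends on the Cdh5 peak kept. The median of 0.47 is the fold of the near Cdh5 peak itself. That peak and Plvap were listed only through the group where they are higher, and the other 3 folds in that table were 1.03 for Esam, 0.17 for Tek and -0.10 for Flt1, so these medians describe the listed peaks and carry nothing further.

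**Figure D4:**
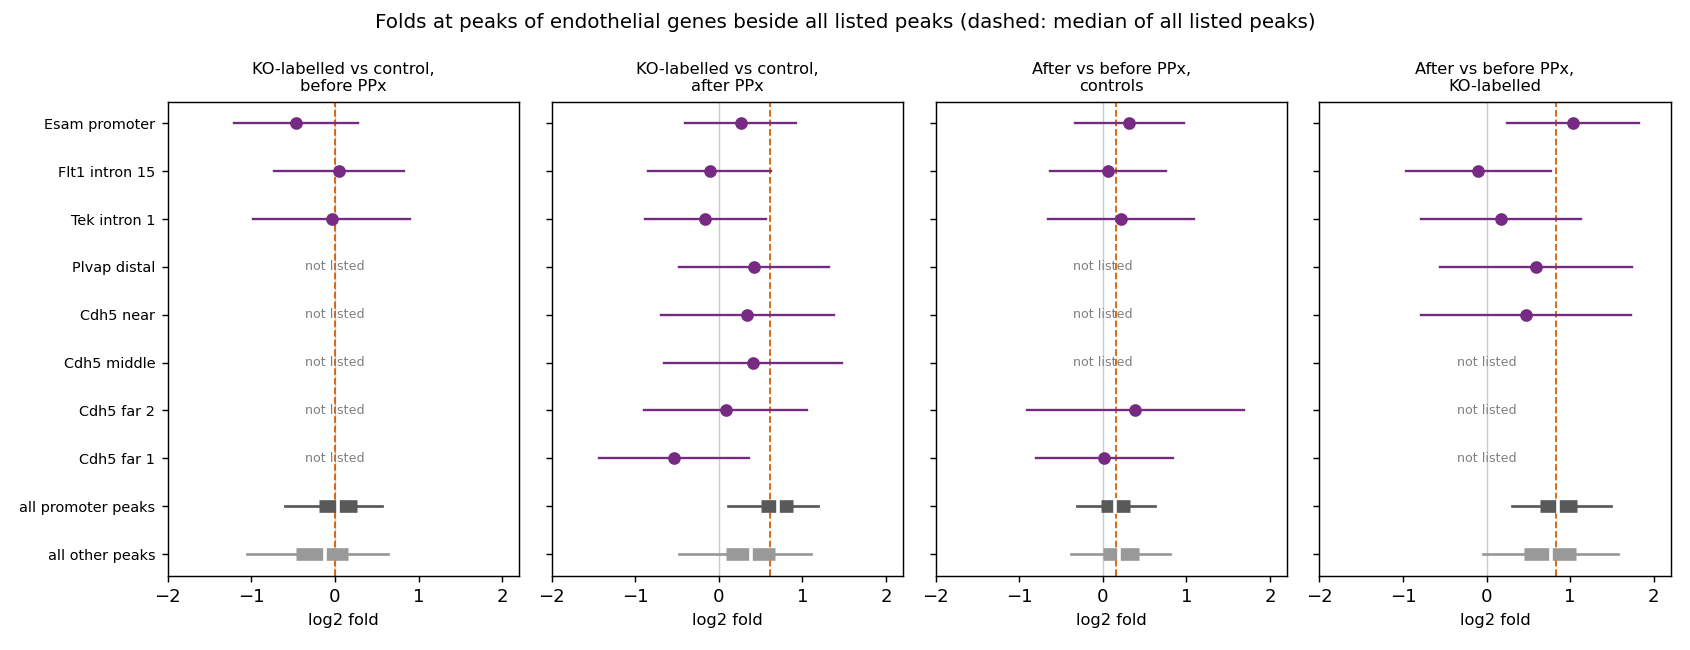
Log2 folds (horizontal axis, the group named first in the panel title over the other) of the endothelial gene peaks with 95% intervals from the implied standard error; below them, the median, middle 50% (thick) and middle 90% (thin) of all promoter peaks and of all other peaks. After PPx, and for PPx in KO-labelled islets, the Flt1 folds of -0.11 and -0.10 lie left of the dashed table medians of 0.61 and 0.83.

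Further vascular genes were followed by lists. Their counts of calls are read against 0.0128% and 9.98% of all listed peaks called for genotype before and after PPx, and 0% and 7.45% for surgery in controls and in KO-labelled islets, and their medians against 0.00, 0.61, 0.16 and 0.83 over all listed peaks. With lists of at most 15 peaks, no count of 0 to 2 calls was taken to set a list apart. Of 35 other endothelial markers, 10 had a listed peak for genotype after PPx and for PPx in KO-labelled islets, and 2 in each other comparison. The former comparisons hold the KO-labelled libraries taken after PPx, in which calls were more frequent throughout. How many of their peaks were listed only through that group was not counted, and the medians include them. For genotype after PPx 0 of 13 peaks were called, with a median log2 fold of 0.51. For PPx in KO-labelled islets 1 of 13 was called, with a median of 0.96. That 1 was a distal peak of Adgrl4, an adhesion receptor gene of sprouting endothelium, at 3.89 after and 2.25 before PPx in KO-labelled islets (log2 fold 1.64, FDR 0.0429 in the authors' deposited table). It was called in 2 libraries after and 0 before PPx and so listed only through the group where it is higher. Tm4sf1, a membrane protein gene of endothelial cells, had the strongest peak of this list, at 5.80 in KO-labelled islets and 5.29 in controls after PPx (log2 fold 0.51, FDR 0.219 in the authors' deposited table). Elsewhere, 0 of 2 peaks were called for genotype before PPx (median -0.34) and 0 of 3 for PPx in controls (median 0.28).

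The VEGF and angiopoietin list, which holds the ligands that act on the receptors above, had 0 calls in any table: 0 of 3 and 0 of 6 peaks for genotype before and after PPx, 0 of 4 for PPx in controls and 0 of 5 for PPx in KO-labelled islets. The promoter of Vegfc, a ligand of KDR and of the lymphatic receptor FLT4, had 5.21 in KO-labelled islets and 4.41 in controls after PPx (log2 fold 0.81, FDR 0.0979 in the authors' deposited table). Vegfa, named here after its values were seen because its product is the main islet ligand, had 1 listed peak, a distal one with 3.17 after and 3.00 before PPx in controls (log2 fold 0.17, FDR 0.999 in the authors' deposited table).

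Endothelial transcription factor genes had 0 of 9, 0 of 12, 0 of 8 and 1 of 13 peaks called for genotype before and after PPx and for surgery in controls and in KO-labelled islets. The 1 was an intron peak of Elk3, an ETS factor gene, at 3.89 after and 1.97 before PPx in KO-labelled islets (log2 fold 1.91, FDR 0.0435 in the authors' deposited table), likewise called in 2 libraries after and 0 before PPx and so listed only through the group where it is higher. Cadherin-catenin and junction partners had 0 of 7, 1 of 15, 0 of 7 and 0 of 15 called in the same order, the 1 being the promoter of Vcl, the gene of the actin linker vinculin, at 5.98 in KO-labelled islets and 4.96 in controls after PPx (log2 fold 1.01, FDR 0.0394 in the authors' deposited table). The endoglin, BMP and Notch list had 0 of 4, 0 of 6, 0 of 4 and 1 of 5, through the promoter of the BMP receptor gene Bmpr2 at 3.92 after and 2.16 before PPx in KO-labelled islets (log2 fold 1.77, FDR 0.0387 in the authors' deposited table). That peak too had 2 calls after and 0 before PPx, and was listed only through the higher group. Vascular basement membrane genes had 0 of 3, 1 of 9, 0 of 3 and 1 of 9: the promoter of Itgb1, the integrin beta 1 gene, by genotype after PPx (4.91 in KO-labelled islets, 3.57 in controls, log2 fold 1.34, FDR 0.0265 in the authors' deposited table) and an intron of the laminin gene Lamb1 over PPx in KO-labelled islets (5.01 after, 3.77 before, log2 fold 1.24, FDR 0.0360 in the authors' deposited table). Called peaks of these lists were all higher, as were 1297 of 1308 calls of genotype after PPx and 951 of 951 calls of PPx in KO-labelled islets. Many of these genes are also active in other cells.

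Markers of the remaining cell types were set beside them for description. Of 12 beta cell marker genes, 4, 7, 4 and 6 had a listed peak in the same order of comparisons. A low count of listed peaks, or none, is therefore no measure of whether a cell type is present. Beta cell markers had 4, 13, 4 and 12 listed peaks in the same order of comparisons, with 0, 2, 0 and 1 called and median log2 folds of -0.105, 0.66, 0.28 and 1.07, beside the shares called and the table medians given above for all listed peaks (9.98% and 0.61 for genotype after PPx, 7.45% and 0.83 for surgery in KO-labelled islets). The 1 called for PPx in KO-labelled islets was an intron peak of Slc30a8, at 4.43 after and 2.88 before PPx (log2 fold 1.56, FDR 0.0484 in the authors' deposited table). It had 2 calls after and 0 before PPx and was thus listed in that table only through the higher group. The strongest beta cell marker peak in the genotype table after PPx was the Ins1 promoter with 5.62 in KO-labelled islets and 4.13 in controls (log2 fold 1.49, FDR 0.0154 in the authors' deposited table). Alpha, delta and PP cell markers had 3, 5, 3 and 5 peaks with 0, 1, 0 and 0 called. Pericyte markers had 0 listed peaks in any table. Acinar markers had 0, 1, 0 and 0, ductal markers 0, 2, 1 and 1, and stellate cell and fibroblast markers 3, 4, 4 and 4, with 0 called in each. Leukocyte markers had 0, 2, 0 and 2, with 1 called, a distal Csf1r peak at 4.03 after and 2.02 before PPx in KO-labelled islets (log2 fold 2.01, FDR 0.0282 in the authors' deposited table), again with 2 calls after and 0 before PPx and thus listed only through the higher group. The part of cell composition in the endothelial values was not tested.

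The peaks most like Cdh5 in level were taken by the distance between group concentrations. The far Cdh5 peak at 581 kb, the one of the 3 listed in 2 tables with the highest mean concentration, was compared with 6296 peaks of named genes over its 4 group values. The nearest were distal peaks of Myo10 (distance 0.207 log2 units), Nt5e (0.227), Actrt2 (0.251) and Kcnh8 (0.261) and an intron peak of Dock2 (0.252), against a median distance of 1.88. The Myo10 peak, for instance, had 3.13 in KO-labelled islets and 3.65 in controls after PPx, close to the 3.00 and 3.54 of Cdh5. Group values of 2 tables that share the controls taken after PPx enter this distance. Of the 5 nearest, 0 are among the 10 endothelial genes. Besides this peak, only Esam, Flt1, Tek and the Cdh5 peak at 565 kb were listed in both tables. The 0 was thus nearly fixed in advance and carries no information.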

How the data were processed

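The submitters' processing notes name cutadapt, BWA, MACS, DiffBind and ChIPseeker and the mm10 build; no versions or settings are given there. The 4 tables that the authors deposited list peaks of equal width. Per the file headers, the deposited concentrations and folds are log2 values of normalised reads per group, the deposited p-value and FDR come from the authors' test, and the deposited counts of calls give the libraries of each group in which a peak was called. The deposited fold equals the difference of the group concentrations within 0.01 and was turned round, to KO-labelled minus control islets and to after minus before surgery. Only group values are given, so depth per library and spread between libraries are unknown. The titles number the libraries without naming mice, and each library was taken to be a separate mouse.

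Repeated rows (1197 and 5281 for genotype before and after PPx, 1337 and 4588 for surgery in controls and in KO-labelled islets) and 1 blank row were removed. An implied standard error is the size of the fold over the normal deviate of its two-sided p; where the fold is below 0.15 or p at least 0.95, the median of the peak's bin (1 of 40 by concentration) was taken. Simulated data checked only its arithmetic. Their p came from the same normal formula, so they cannot show how the deposited p behaves. Peaks sharing 1 bp or more between tables were counted as 1 place. Genes were located with RefSeq (GRCm38.p6): 84.0 to 85.4% of promoter peaks with a RefSeq symbol lay within 1 kb of an end of that gene. Python 3.11.15, pandas 2.3.3 and scipy 1.17.1 were used. The members, the 14 gene lists and the alternatives were chosen with earlier results of these data known. Every listed peak of the 10 genes is named; from each wider list, up to 3 called genes per comparison, or else the 2 of highest concentration, were eligible to be named. The 0.15 limit and the comparison of gaps between groups were chosen after seeing the data.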

Additional observations from a re-analysis of the deposited data

How the results depend on the processing

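The counts of called peaks were 0 in each comparison as deposited and stayed 0 at an FDR of 0.01, with Benjamini-Hochberg adjustment over all listed peaks and with folds centred on the table median. For PPx in KO-labelled islets the count became 1 (Esam) at an FDR of 0.1 and at an unadjusted p under 0.05; the other comparisons kept 0. The median fold for genotype before PPx was -0.47 with promoter peaks only (1 peak, Esam) and that for PPx in KO-labelled islets 1.03, and centring on the table median gave -0.44 for genotype after PPx and -0.36 for PPx in KO-labelled islets. With 1 peak per gene, the 581 kb peak standing for Cdh5, the median for genotype after PPx turned from 0.17 to -0.11. With a mean log2 concentration of 3 or above it was 0.08. Centring turned 10 of 21 folds of single peaks, none of them called. For genotype after PPx these became -0.35 (Esam), -0.19 (Plvap), -0.27 (near Cdh5), -0.20 (middle Cdh5) and -0.53 (Cdh5 at 565 kb); for PPx in controls -0.10 (Flt1) and -0.14 (Cdh5 at 581 kb); for PPx in KO-labelled islets -0.66 (Tek), -0.24 (Plvap) and -0.36 (near Cdh5). Set against peaks of like concentration and class, 8 folds turned: Tek to 0.17 before PPx, Esam to -0.50 and Cdh5 at 565 kb to -0.32 after PPx, Flt1 to -0.14 and Cdh5 at 581 kb to -0.23 in controls, and Tek to -0.64, Plvap to -0.20 and near Cdh5 to -0.20 in KO-labelled islets. The turns follow from subtracting medians larger than the folds. The number of peaks listed in several tables was 7 at an overlap of 1 bp and at 50%. No replicate could be left out, since only group values are given. No paired analysis was possible because the labels number libraries without pairing mice and the tables hold group means. Of the 8 peaks after PPx, 5 had an FDR of 1; the cause was not tested.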
